A study of Mus musculus with 12 samples.

Results

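The genes described here are 7 matrix metalloproteinases (Mmp2, Mmp3, Mmp9, Mmp10, Mmp11, Mmp13 and Mmp14) and 3 of their tissue inhibitors (Timp1, Timp2 and Timp3). They were taken by name, through all 12 probes on the array that matched their RefSeq symbols, from an array that carries 32095 transcripts. Of these 10 genes, 8 passed the filter on dim probes and were tested among 19507 transcripts. Mmp9 and Mmp10 did not pass it, and their values are given untested.

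Transcript levels were measured on 12 arrays with 1 dye (Cy3) in primary mouse embryonic fibroblasts (MEFs), which were grown from E12.5 embryos of wild-type (WT) mice or of mice with a knock-out (KO) of Itpr2. Itpr2 encodes an inositol trisphosphate receptor, through which the endoplasmic reticulum releases calcium. Each genotype was sampled after 3 passages (early) and after 5 passages (late), with 3 arrays in each of the 4 groups. The design text counts 3 independent animals per genotype, and the allele, the strain and any pooling of embryos were not stated in the sources used here. Every value below is a level on the log2 scale, the log2 signal of the probe minus the 75th percentile of its array, so 0 stands for a signal at that percentile. A difference is the difference of group means on this scale with the standard error (SE) of a limma model over all 12 arrays. A change was called at an adjusted p under 0.05 (limma, Benjamini-Hochberg over the 19507 transcripts). Probes of different genes bind with different strength, so no level is set against that of another gene.

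Matrix metalloproteinases are zinc-dependent enzymes that are secreted or anchored in the membrane as inactive precursors, and that cleave collagens, proteoglycans and glycoproteins of the matrix after their propeptide is removed. Tissue inhibitors of metalloproteinases (TIMPs) bind the active site and hold this cleavage in check. Fibroblasts make most of the enzymes and inhibitors of connective tissue, and the secretion of collagenase and stromelysins is a known feature of fibroblasts that have aged in culture.

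The Itpr2 probe read 0.66 to 1.23 on WT early and 1.53 to 1.74 on WT late arrays, against 1.12 to 1.58 on KO early and 1.72 to 1.83 on KO late arrays. It was not lower in KO. The sources used here do not place it relative to the deletion, so it does not check the genotype. Of 39429 probes, 59.1% to 67.5% per array passed the scanner software's call for a signal well above background, and 0 spots were saturated. All 11 fibroblast markers were above background on all arrays, and so were all 14 macrophage markers. Xist, which coats the inactive X in female cells, was above background on both WT arrays of replicate 1 and on KO late replicates 1 and 2. Ddx3y, a Y-linked helicase, was low on both WT arrays of replicate 1 and on KO late replicate 2, at -7.05 or below, and read -0.14 on KO late replicate 1 against 0.76 to 0.95 on the other 8 arrays. No KO early array carried Xist and all carried Ddx3y, so KO late replicates 1 and 2 matched no KO early array in these genes. KO arrays of the same number can therefore not be taken as the same culture at the 2 passages. The passage comparison in KO and the late comparison of genotypes also differ in these genes. Without KO late replicates 1 and 2, 1 KO late array is left, with fewer degrees of freedom in every comparison. Most KO passage calls and all late KO minus WT calls in the 6 gene lists described at the end were then lost. Calls for WT passage, which uses neither array, were lost as well. How many calls were lost over all transcripts is not given here, so these losses are no result about the lists. The part of sex was not tested. WT arrays with the same replicate number deviated together across passages, and those of KO did not. The arrays are bulk samples, in which fewer cells of a type and less RNA per cell cannot be told apart.

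Of the members, 8 have an entry in the RefSeq promoter table (GRCm38.p6), all except Mmp2 and Mmp9, among them Mmp3, Mmp10 and Mmp13 from the metalloproteinase group of chromosome 9. The promoters of these 3 and of Mmp14 are printed because the first-named genes hold letters that the other 5 members with an entry lack, and because Mmp14 carries the single change called among the members. Each is the last 150 bases before the annotated start, 5′ to 3′ on the strand of the gene. Capitals mark the AP-1 letters TGAGTCA, read as TGACTCA on the opposite strand, and in Mmp14 the GC box letters GGGCGG.
Mmp3, chr9:7445672-7445821, + strand: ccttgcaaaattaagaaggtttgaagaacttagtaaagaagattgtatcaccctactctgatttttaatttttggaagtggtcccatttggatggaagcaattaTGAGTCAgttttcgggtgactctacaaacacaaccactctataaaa
Mmp10, chr9:7502192-7502341, + strand: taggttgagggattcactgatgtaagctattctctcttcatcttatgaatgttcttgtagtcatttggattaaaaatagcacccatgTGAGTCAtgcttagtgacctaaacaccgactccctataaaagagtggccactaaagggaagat
Mmp13, chr9:7272364-7272513, + strand: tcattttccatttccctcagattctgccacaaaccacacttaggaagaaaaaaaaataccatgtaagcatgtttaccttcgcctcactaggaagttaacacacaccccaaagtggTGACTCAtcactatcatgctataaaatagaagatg
Mmp14, chr14:54431448-54431597, + strand: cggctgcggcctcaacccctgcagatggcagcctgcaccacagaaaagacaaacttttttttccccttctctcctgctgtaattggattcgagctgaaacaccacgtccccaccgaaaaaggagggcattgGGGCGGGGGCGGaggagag

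The AP-1 letters began 46 bases before the annotated start in Mmp3, 63 in Mmp10 and 35 in Mmp13. They were found in the 250 bases before the start in 3 of 8 members, against 4.46% of 32851 mouse promoters of this length searched on both strands. The letters TATAAA, or TTTATA, were found in the same 3 members, against 12.4% of all promoters. GGGCGG, or CCGCCC, was found in the other 5 (Mmp11, Mmp14, Timp1, Timp2 and Timp3), against 32.7%. Mmp14 held it at 2 places that touch without overlapping, and the matches of the 3 motifs did not overlap each other. Mmp3, Mmp10 and Mmp13 lie among 10 metalloproteinase genes grouped on chromosome 9, of which 7 hold the AP-1 letters in this window. A match describes letters and not a bound site, and these arrays do not measure binding.

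Of the 8 tested members, only Mmp14 had a called change, between passages of WT cells. It encodes a membrane-anchored collagenase that, together with Timp2, activates the precursor of Mmp2 at the cell surface. Mmp14 read 1.30, 1.46 and 2.18 on the 3 WT early arrays and 1.02, 0.88 and 0.59 on the 3 WT late arrays. All 3 late arrays lay below all 3 early ones. On KO arrays it read 0.91, 1.10 and 1.27 at early passage and 1.00, 1.13 and 0.88 at late passage. Those 2 KO groups overlapped, and the KO early arrays lay below the lowest WT early array.

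Late minus early passage in WT was -0.81 ± 0.21 for Mmp14 (SE, n = 3 per group, limma adjusted p = 0.0373), a 1.76-fold fall, with a 95% interval of -1.28 to -0.34. The array pairs of the 3 slides, each of which carried all 4 groups, gave -0.28, -0.57 and -1.58. The widest of these came from WT replicate 3, whose early array was the highest of the 12. Without that early array the difference was -0.55 (adjusted p = 0.0598), and the call was also lost without any other array except WT early replicate 1, KO early replicate 1 and KO early replicate 3, with adjusted p up to 0.103. With the replicate number, which is also the slide, as a block the limma adjusted p was 0.0537. With the block in WT alone, the genotype in which same-numbered arrays deviated together, it was 0.0451. It was 0.160 with only the WT groups in the fit, 0.0854 without the filter on dim probes and 0.0882 with array weights by group. In KO the passage difference of Mmp14 was -0.091 ± 0.21 (adjusted p = 0.797), with a 95% interval of -0.56 to 0.38. The difference between these passage changes was 0.72 ± 0.30 (unadjusted p = 0.0359 and adjusted p = 0.329, limma), so it did not pass. The WT early group held the highest mean, 1.65 ± 0.47 (SD, n = 3), followed by KO early at 1.09 ± 0.18, KO late at 1.00 ± 0.12 and WT late at 0.83 ± 0.22, and the last 3 overlapped.

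**Figure D1:**
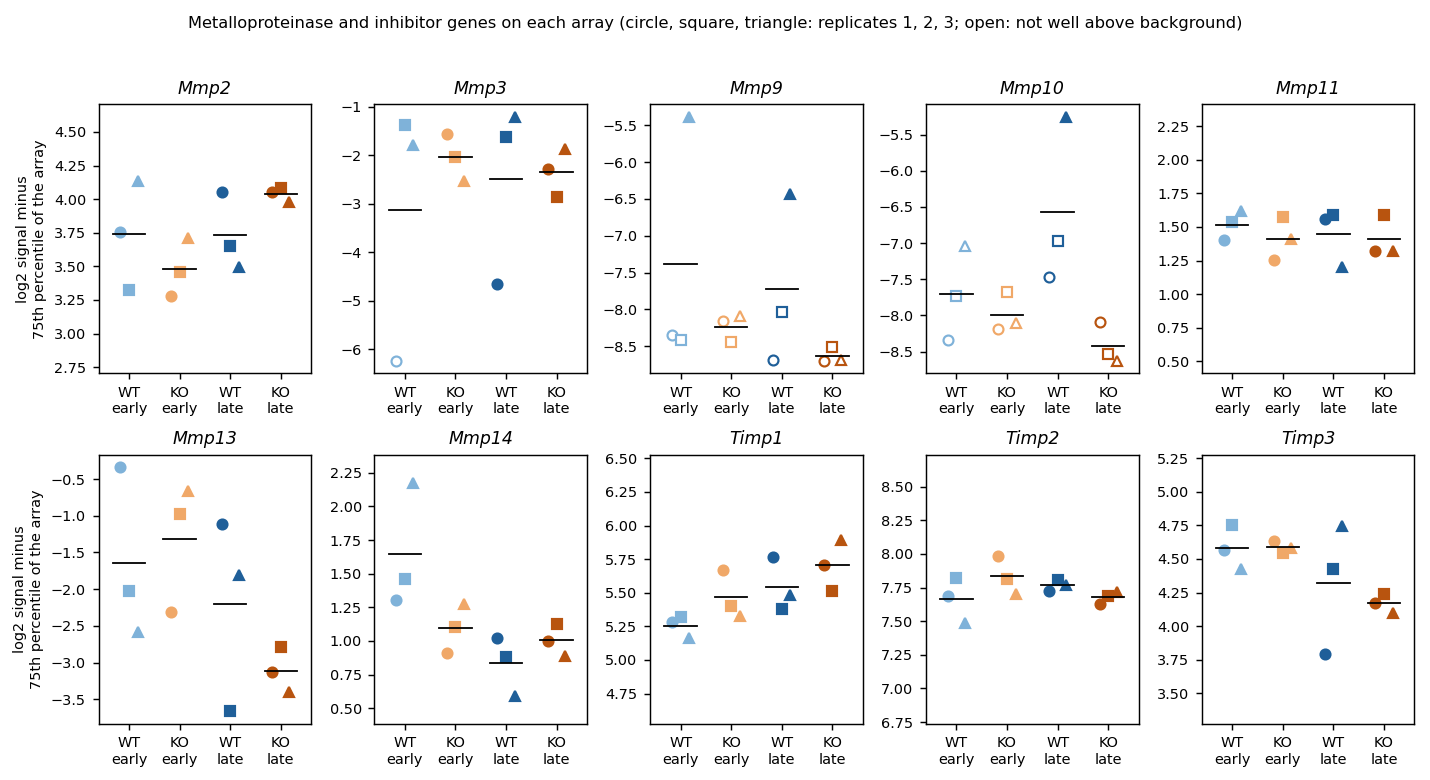
Level of each of the 10 genes on each array (y axis, log2 signal minus the 75th percentile of the array) in the 4 groups (x axis), with circles, squares and triangles for replicates 1, 2 and 3, open symbols for probes not well above background and a bar at the group mean. The WT late symbols of Mmp14 all lie below its WT early ones, and Mmp3 is low on both WT arrays of replicate 1.

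Mmp2, gelatinase A, is the enzyme whose precursor Mmp14 activates, and it degrades denatured and basement membrane collagen. It read 3.75, 3.33 and 4.13 in WT early and 4.05, 3.65 and 3.49 in WT late arrays. In KO it read 3.28, 3.46 and 3.71 at early and 4.05, 4.09 and 3.98 at late passage. The KO groups did not overlap, all 3 KO late arrays being higher, while the WT groups did. Late minus early passage was 0.56 ± 0.21 in KO (limma unadjusted p = 0.0222, adjusted p = 0.0869) and -0.0042 ± 0.21 in WT (adjusted p = 0.993). The difference in KO passed when only the KO groups entered the fit (adjusted p = 0.0231), with array weights by group (adjusted p = 0.0140) and without WT early replicate 3 (adjusted p = 0.0449). Without KO late replicates 1 and 2, which carry Xist, it was 0.49 ± 0.33 (adjusted p = 0.517). KO minus WT was -0.26 ± 0.21 at early and 0.30 ± 0.21 at late passage, and neither passed.

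Mmp9, gelatinase B, is an enzyme made mostly by neutrophils, macrophages and osteoclasts. Its probe was above background on 2 arrays, WT early replicate 3 at -5.38 and WT late replicate 3 at -6.44. Both came from WT replicate 3, and on the other 10 arrays the probe read -8.70 to -8.03, not well above background. Of 7 neutrophil markers measured, 2 to 3 were above background on each array, and S100a9, Mpo and Ltf were so on 0 arrays. Their summed level, in units of the 75th percentile signal, was 0.54 to 0.87 on WT early and 0.53 to 0.62 on WT late arrays, and 0.55 to 0.64 on KO early and 0.45 to 0.47 on KO late arrays. The part of neutrophils and macrophages was not tested.

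Mmp13 is the main collagenase of mouse connective tissue and is also made by hypertrophic chondrocytes and osteoblasts. It read -0.33, -2.02 and -2.58 in WT early and -1.12, -3.67 and -1.80 in WT late arrays. In KO it read -2.31, -0.98 and -0.66 at early and -3.13, -2.79 and -3.40 at late passage. The WT groups overlapped widely, whereas all 3 KO late arrays lay below all 3 KO early ones. Late minus early passage in KO was -1.80 ± 0.72 (limma unadjusted p = 0.0318, adjusted p = 0.110), with a 95% interval of -3.40 to -0.19. It passed with only the KO groups in the fit (adjusted p = 0.0345) and with array weights by group (adjusted p = 0.0256), and shrank to -0.96 ± 0.39 with a normexp background correction (adjusted p = 0.124). Without KO late replicates 1 and 2 it was -2.09 ± 1.12 (adjusted p = 0.414). In WT the same difference was -0.55 ± 0.72 (adjusted p = 0.654), and KO minus WT was 0.33 ± 0.72 at early and -0.92 ± 0.72 at late passage. Single arrays moved these values widely. The WT passage difference was -1.09 without WT late replicate 1, and turned to 0.19 without WT late replicate 2 and to 0.11 without WT early replicate 1. KO minus WT at early passage was 0.99 without WT early replicate 1 and turned to -0.14 without WT early replicate 3, and at late passage it was -0.38 without WT late replicate 1 and -1.65 without WT late replicate 2. None of these passed. The summed level of the hypertrophic cartilage and bone markers, in units of the 75th percentile signal, was 3.02 to 3.06 in KO early and 0.54 to 1.95 in KO late arrays, against 2.69 to 6.84 in WT early and 1.64 to 3.85 in WT late. The sum hides that these markers did not move alike. With passage in KO, Alpl, Sp7 and Col10a1 had differences of -3.07, -1.98 and -1.62, while Runx2 was at -0.054 and Ihh at 0.47. Alpl had a passage difference of -3.23 in WT as well. The part of such cells in the Mmp13 values was not tested.

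Mmp3, a stromelysin that cleaves proteoglycans and activates other precursors, had the highest pooled SD of the tested members. It read -6.25, -1.37 and -1.79 in WT early and -4.66, -1.63 and -1.21 in WT late arrays. In KO it read -1.56, -2.03 and -2.53 at early and -2.29, -2.87 and -1.87 at late passage. The 2 low values came from WT replicate 1 at each passage, the WT arrays that carried Xist, and the early one was not well above background. KO late replicates 1 and 2, which also carried Xist, read -2.29 and -2.87, and the part of sex in the low values was not tested. The pooled SD of the 4 groups was 1.68, above that of 99.9% of the transcripts, whose median was 0.19. KO minus WT at early passage was 1.10 ± 1.22 (limma adjusted p = 0.817), with a 95% interval of -1.61 to 3.80. Without both WT arrays of replicate 1 it was -0.46 ± 0.35 at early and -0.93 ± 0.35 at late passage (adjusted p = 0.565 and 0.148), where all arrays gave 0.15 ± 1.22 at late passage. Leaving out WT early replicate 1 alone turned the early difference to -0.46, and leaving out WT late replicate 1 alone turned the late one to -0.93.

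Mmp10, a stromelysin whose gene lies in the same group as Mmp3 and Mmp13, was above background on 1 array, WT late replicate 3 at -5.25. The other WT late arrays read -7.46 and -6.98 and the WT early arrays -8.34, -7.73 and -7.04. All 6 KO arrays lay between -8.63 and -7.68. The WT late arrays were all above the KO late arrays, but 5 of these 6 values were not well above background, so no fold is given.

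**Figure D2:**
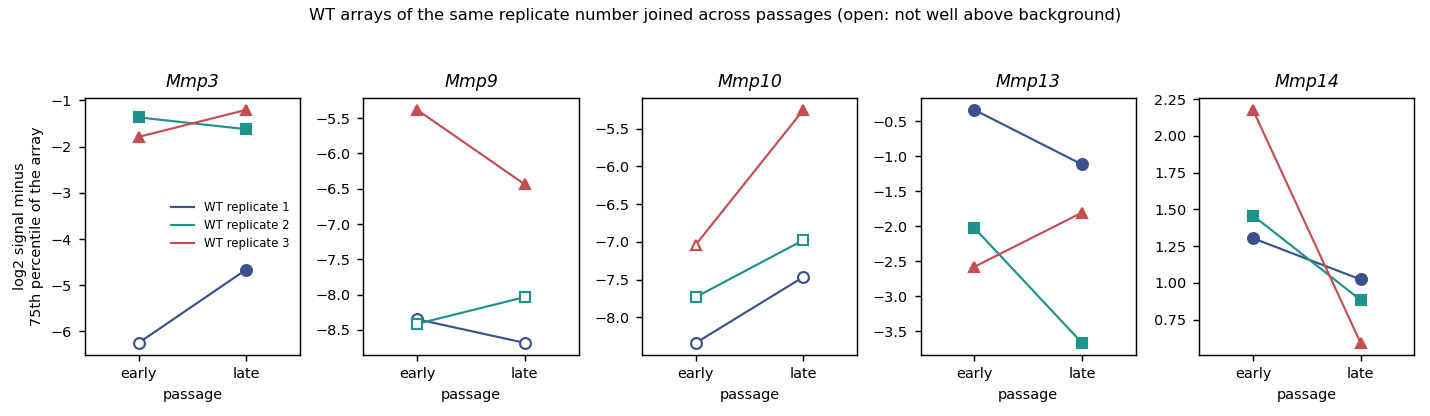
Level of 5 metalloproteinase genes on the WT arrays (y axes, log2 signal minus the 75th percentile of the array, scaled separately) at early and late passage (x axes), with a line joining arrays of the same replicate number and open symbols for probes not well above background. Replicate 1 is low in Mmp3 at both passages, replicate 3 is high in Mmp9 at both passages, and all 3 replicates fall in Mmp14.

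Mmp11, a stromelysin that furin activates inside the cell, hardly varied. Its main probe read 1.40 to 1.62 on WT early and 1.21 to 1.59 on WT late arrays, and 1.25 to 1.57 on KO early and 1.32 to 1.59 on KO late arrays. All 4 groups overlapped, and their means spanned 0.11. The passage difference was -0.067 ± 0.13 in WT and -0.0012 ± 0.13 in KO, with 95% intervals of -0.36 to 0.23 and -0.30 to 0.29. A further Mmp11 probe read 0.31 to 0.64 over all arrays, and its passage difference in WT had the opposite sign, at 0.0068 ± 0.097.

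Timp1 is the secreted inhibitor that also binds the Mmp9 precursor. It read 5.28, 5.32 and 5.16 in WT early and 5.76, 5.38 and 5.48 in WT late arrays. In KO it read 5.67, 5.40 and 5.32 at early and 5.71, 5.51 and 5.89 at late passage. The WT late arrays all lay above the WT early ones, and so did the KO early arrays, while the KO groups overlapped. Late minus early passage was 0.29 ± 0.14 in WT and 0.24 ± 0.14 in KO (limma adjusted p = 0.198 and 0.249). Quantile normalization gave 0.40 in WT (adjusted p = 0.0501) and 0.43 in KO (adjusted p = 0.0278), and a normexp background correction before it gave 0.39 (adjusted p = 0.0397) and 0.43 (adjusted p = 0.0186). Over all settings the passage difference ranged from 0.18 to 0.40 in WT and from 0.14 to 0.43 in KO. The passage difference of Timp1 was positive in both genotypes on each of the 3 slides.

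Timp2, the inhibitor that links the Mmp2 precursor to Mmp14, had the lowest pooled SD of the tested members. It read 7.49 to 7.82 on WT early and 7.72 to 7.81 on WT late arrays, and 7.70 to 7.99 on KO early and 7.63 to 7.72 on KO late arrays. That SD over the 4 groups was 0.11, above that of 20.8% of the transcripts. KO minus WT at late passage was -0.089 ± 0.10 (limma adjusted p = 0.647), with no overlap between the groups and a 95% interval of -0.32 to 0.14. A further Timp2 probe had the same sign in all 4 of the comparisons between groups.

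Timp3, the inhibitor that stays bound to the matrix, read 4.57, 4.76 and 4.42 in WT early and 3.79, 4.43 and 4.74 in WT late arrays. In KO it read 4.63, 4.55 and 4.58 at early and 4.17, 4.24 and 4.10 at late passage. All 3 KO late arrays lay below the KO early ones, and the WT groups overlapped. Late minus early passage was -0.42 ± 0.20 in KO (limma adjusted p = 0.168) and -0.26 ± 0.20 in WT (adjusted p = 0.413). In KO the difference passed with only the KO groups in the fit (adjusted p = 0.00973) and without WT late replicate 1 (adjusted p = 0.0330), the array with the lowest Timp3 value. Without KO late replicates 1 and 2 it was -0.49 ± 0.31, which did not pass.

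Counted over the 8 tested members, KO minus WT at early passage was called in 0, against 0.0359% of all transcripts (0.0256% higher and 0.0103% lower). Mmp14 was the single member with an unadjusted limma p under 0.05 there, at -0.55 ± 0.21 (unadjusted p = 0.0256, adjusted p = 0.741), against 5.99% of all transcripts. Without WT early replicate 3 this difference was -0.29 ± 0.15 (limma adjusted p = 1.00). Groups did not overlap for Mmp14 and Timp1, 2 of 8 against 9.54% of all transcripts. KO minus WT at late passage was called in 0 of 8 members, against 7.83% of all transcripts (3.46% higher and 4.37% lower). There 0 members had an unadjusted limma p under 0.05, against 24.9%, and 1 (Timp2) had groups that did not overlap, against 39.3%. The member medians were 0.086 at early and 0.057 at late passage, where the medians of all transcripts were 0.017 and -0.0081.

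The passage change in WT was called in 1 of 8 members, Mmp14, against 10.6% of all transcripts (6.22% higher and 4.37% lower). In KO it was called in 0 of 8, against 18.9% (9.95% higher and 9% lower). An unadjusted limma p under 0.05 was reached by 1 member in WT, Mmp14, against 28.4% of all transcripts. In KO, 2 members (Mmp2 and Mmp13) had an unadjusted limma p under 0.05, against 33.8%. Groups did not overlap in 2 of 8 members in WT (Mmp14 and Timp1) and in 3 of 8 in KO (Mmp2, Mmp13 and Timp3), against 27.7% and 51.9% of all transcripts. The member medians were -0.036 in WT and -0.12 in KO, and those of all transcripts -0.0043 and -0.047. The difference between the passage changes was called in 0 of 8, against 0.0871% (0.0205% higher and 0.0666% lower), with Mmp14 the single member at an unadjusted limma p under 0.05, against 13.9%. The comparisons share arrays, since each group enters 2 of them. With 3 arrays per group the 95% intervals of Mmp3 and Mmp13 spanned several log2 units.

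**Figure D3:**
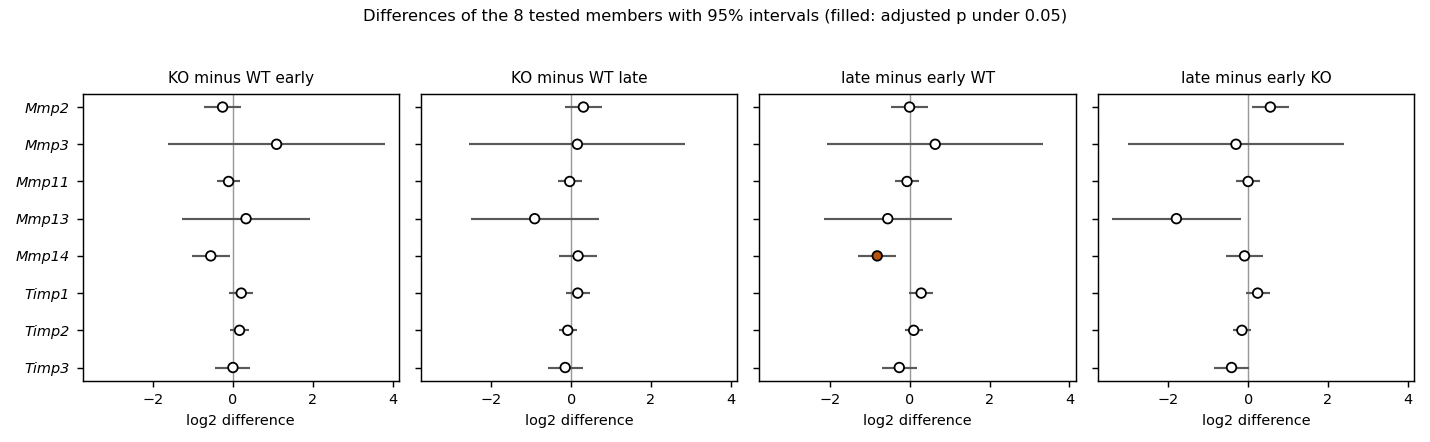
Log2 difference of the 8 tested genes (x axis, points, with 95% intervals as lines) in the 4 comparisons between groups, filled where the adjusted p was under 0.05. Mmp14 in late minus early WT, at -0.81, is the filled point, and the intervals of Mmp3 and Mmp13 are the widest.

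The genes whose 12 values followed a member most closely were ranked by the root mean square difference after each gene was centred on its own mean, for the 3 members with the widest range of group means. Nearest to Mmp13 were Dcaf12l1 at 0.44, Rgs5, a regulator of G protein signalling, at 0.49 and the homeobox gene Hoxb9 at 0.56. The median was 1.07 over the kept genes with a symbol, which were the genes ranked. Nearest to Mmp3 were Kdm5d, a Y-linked histone demethylase, at 0.91, the chemokine gene Ccl8 at 0.94 and Rpp25 at 0.95, against a median of 1.45. Nearest to Mmp14 were Tsku, a small leucine-rich proteoglycan, at 0.10, Skint9 at 0.12 and the phosphatase gene Ctdnep1 at 0.12, against a median of 0.44. The root mean square distance of a member's values from their own mean was 1.06 for Mmp13, 1.43 for Mmp3 and 0.38 for Mmp14. The 12 arrays share 3 slides and 4 groups, and these distances are a description.

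Of 18 other metalloproteinases and inhibitors listed, 9 were measured. In KO 3 fell with passage and 0 rose, in WT 1 fell and 0 rose, and KO minus WT was called in 0 at either passage. Among all transcripts, 9% fell and 9.95% rose with passage in KO, 4.37% fell and 6.22% rose in WT, and KO minus WT was called in 0.0359% at early and 7.83% at late passage. The counts of the following lists stand beside these same shares. All 6 lists were chosen with earlier results of these data known, so their counts are a description and no independent test. Mmp23 read 1.96 ± 0.35 in WT early and 0.77 ± 0.32 in WT late arrays, and 2.00 ± 0.13 and 0.73 ± 0.069 in KO (SD, n = 3). Its passage difference was -1.19 ± 0.19 in WT (limma adjusted p = 0.00641) and -1.27 ± 0.19 in KO (adjusted p = 0.00257). Of the membrane-anchored enzymes, Mmp24 fell in KO by at least 2.28-fold (adjusted p = 0.00558) and Mmp15 by at least 2.43-fold (adjusted p = 0.0158), both above background on all KO early arrays and on 0 KO late arrays. Reck, a membrane-anchored inhibitor of metalloproteinases, had a passage difference of 0.54 ± 0.17 in KO (adjusted p = 0.0537) and -0.14 ± 0.17 in WT. Mmp12, macrophage elastase, was -1.29 ± 0.48 in KO minus WT at late passage (adjusted p = 0.124). The summed level of the macrophage markers was 85.7 to 138 times the 75th percentile signal on WT late and 43.0 to 80.3 times on KO late arrays, and its part was not tested.

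The related ADAM and ADAMTS proteases shed membrane proteins and cleave proteoglycans, and 23 of 26 were measured. With passage 4 fell and 0 rose in WT, and 7 fell and 0 rose in KO, against 4.37% and 9% of all transcripts that fell. Adamts16, among the 7, passed the filter through the KO early arrays alone. Adamts5, an aggrecan-cleaving enzyme, had a passage difference of -1.11 ± 0.14 in WT (limma adjusted p = 0.00208) and -0.88 ± 0.14 in KO (adjusted p = 0.00302), and Adamts4, another such enzyme, of -0.57 and -0.54 (adjusted p = 0.0357 and 0.0281). Adamts17 read -3.80 ± 0.64 on WT early and -6.79 ± 0.54 on WT late arrays, and -4.78 ± 0.11 on KO late arrays (SD, n = 3). Of its WT late arrays, 1 of 3 gave a signal above background. It was called lower with passage in WT (adjusted p = 0.00292) and higher in KO late than in WT late arrays (adjusted p = 0.0184), and both sizes are uncertain. Adamts18 fell with passage in KO by at least 2.72-fold (adjusted p = 0.00794) and was at least 2.19-fold lower in KO late than in WT late arrays (adjusted p = 0.0296). The list's median passage difference was -0.26 in WT and -0.38 in KO.

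Among enzymes and inhibitors that activate metalloproteinase precursors or act beside them at the cell surface, 23 of 27 were measured. With passage 2 rose and 4 fell in WT, against 6.22% and 4.37% of all transcripts. In KO 2 rose and 2 fell, against 9.95% and 9%. Ctsk, the collagen-degrading cathepsin K, read 1.93 ± 0.42 on WT early and 0.82 ± 0.52 on WT late arrays, and 2.03 ± 0.11 on KO early and -0.58 ± 0.25 on KO late arrays (SD, n = 3). Its passage difference was -2.62 ± 0.27 in KO (limma adjusted p = 0.000453) and -1.12 ± 0.27 in WT (adjusted p = 0.0283), and KO minus WT was -1.40 ± 0.27 at late passage (adjusted p = 0.0155). Fap, a serine protease of activated fibroblasts, had passage differences of -2.16 ± 0.31 in WT (adjusted p = 0.00373) and -2.58 ± 0.31 in KO (adjusted p = 0.000907). Ctsl, cathepsin L, rose in both genotypes, by 0.60 ± 0.13 in WT and 0.67 ± 0.13 in KO (adjusted p = 0.0199 and 0.00779). Plau, the urokinase that generates plasmin, rose in WT by 0.75 ± 0.18 (adjusted p = 0.0293). The proprotein convertase gene Pcsk5 was higher in KO late than in WT late arrays by 2.03 ± 0.38 (adjusted p = 0.0144).

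All 13 listed partners that dock, take up or induce metalloproteinases were measured, and with passage 2 rose and 3 fell in each genotype. Of all transcripts, 6.22% rose and 4.37% fell in WT, and 9.95% rose and 9% fell in KO. Lcn2, the lipocalin that binds Mmp9, rose by 0.68 ± 0.18 in WT (limma adjusted p = 0.0370) and by 1.50 ± 0.18 in KO (adjusted p = 0.000877). It was also higher in KO late than in WT late arrays, by 1.15 ± 0.18 (adjusted p = 0.00734). Cd44, a hyaluronan receptor on which Mmp9 and Mmp14 dock, read 3.15 ± 0.14 on WT late and 1.68 ± 0.11 on KO late arrays (SD, n = 3), a difference of -1.46 ± 0.31 (adjusted p = 0.0223). Mrc2, an uptake receptor for collagen fragments, had a passage difference of -0.86 ± 0.20 in WT and -0.78 ± 0.20 in KO (adjusted p = 0.0270 and 0.0246).

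All 20 matrix substrates were measured. With passage 1 rose and 5 fell in WT, against 6.22% and 4.37% of all transcripts. In KO 1 rose and 1 fell, against 9.95% and 9%. The list medians were -0.42 in WT and -0.20 in KO. Eln, elastin, had passage differences of -2.44 ± 0.60 in WT and -2.42 ± 0.60 in KO (limma adjusted p = 0.0305 and 0.0198). Spp1, osteopontin, a substrate of stromelysins, rose by 1.70 ± 0.29 in WT and by 1.07 ± 0.29 in KO (adjusted p = 0.00822 and 0.0301). Vcan, the proteoglycan versican, had a passage difference of -1.27 ± 0.27 in WT (adjusted p = 0.0170) and was higher in KO late than in WT late arrays by 1.24 ± 0.27 (adjusted p = 0.0236). The summed level of the fibroblast markers, some of which are in this list, was 587 to 730 on WT early and 481 to 559 on WT late arrays, and 645 to 702 on KO early and 522 to 581 on KO late arrays. Bright probes weigh most in this sum. With passage in KO, Lum, Col3a1, Pdgfra and Pdgfrb had positive differences (0.44, 0.33, 0.27 and 0.15) and the other fibroblast markers negative ones. In WT all but S100a4 (0.21) had negative ones. The part of the sum was not tested.

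Of 31 transcription factors and cytokines known to act on metalloproteinase genes, 30 were measured. With passage 9 rose and 1 fell in WT, and 10 rose and 1 fell in KO, against 6.22% and 9.95% of all transcripts that rose. Il1b is in both counts of rises, though it passed the filter only through the WT late arrays, where it was high. Because the list was chosen with earlier results known, these counts do not test for an excess of rises. Fos, a subunit of AP-1, read -1.80 ± 0.34 on WT early and 0.24 ± 0.43 on WT late arrays, and -1.87 ± 0.23 on KO early and 0.59 ± 0.29 on KO late arrays (SD, n = 3). It rose by 2.03 ± 0.25 in WT (limma adjusted p = 0.00199) and by 2.47 ± 0.25 in KO (adjusted p = 0.000416). Junb, another AP-1 subunit, rose by 1.21 ± 0.26 and 1.90 ± 0.26 (adjusted p = 0.0178 and 0.00163), and Egr1, a zinc finger factor, by 1.63 ± 0.20 and 1.94 ± 0.20 (adjusted p = 0.00199 and 0.000453). Mmp3 and Mmp13, whose promoters carry the AP-1 letters, had passage differences of 0.64 ± 1.22 and -0.55 ± 0.72 in WT and of -0.30 ± 1.22 and -1.80 ± 0.72 in KO, none of which passed. Their 95% intervals were wide, from -2.07 to 3.34 for Mmp3 in WT. Mmp10, which also carries the letters, was too dim to be tested. Whether AP-1 acted on these genes here was not tested.

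Hbegf, a growth factor of the EGF family, rose by 1.97 ± 0.25 in WT and by 1.21 ± 0.25 in KO (limma adjusted p = 0.00234 and 0.00972), and Il6, the interleukin gene, by 1.17 ± 0.27 and 1.86 ± 0.27 (adjusted p = 0.0241 and 0.00216). Il1b, an inducer of collagenase and stromelysins, was above background on 0 early arrays, on 3 WT late and on 2 KO late arrays. It passed the filter through the WT late arrays alone, so no test is given for it. KO minus WT at late passage was called higher in 3 and lower in 6 of the 30, against 3.46% and 4.37% of all transcripts. Tnf, the tumour necrosis factor gene, had a difference of -1.28 ± 0.30 (adjusted p = 0.0306), the growth factor gene Pdgfb of -1.12 ± 0.26 (adjusted p = 0.0315) and Fgf2, another growth factor gene, of -1.18 ± 0.22 (adjusted p = 0.0136). The 3 genes called higher were Fosb at 0.75, Il1r1 at 0.74 and Cebpb at 0.70 (limma adjusted p = 0.0498, 0.0170 and 0.0279). The macrophage marker sum, lower on KO late arrays, is given above, and its part in the calls of this list was not tested. In KO minus WT at early passage, and in the difference between the passage changes, 0 genes of the 6 lists were called. Of the 83 list calls, 54 were lost when at least 1 single array was left out. Among the calls named above, no single array ended those of Mmp23, Adamts5, Fap, Fos, Egr1 and Hbegf in both genotypes, of Adamts17 and Spp1 with passage in WT, of Mmp24, Adamts18, Ctsk, Ctsl, Lcn2, Junb and Il6 with passage in KO, or of Lcn2 between late groups.

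**Figure D4:**
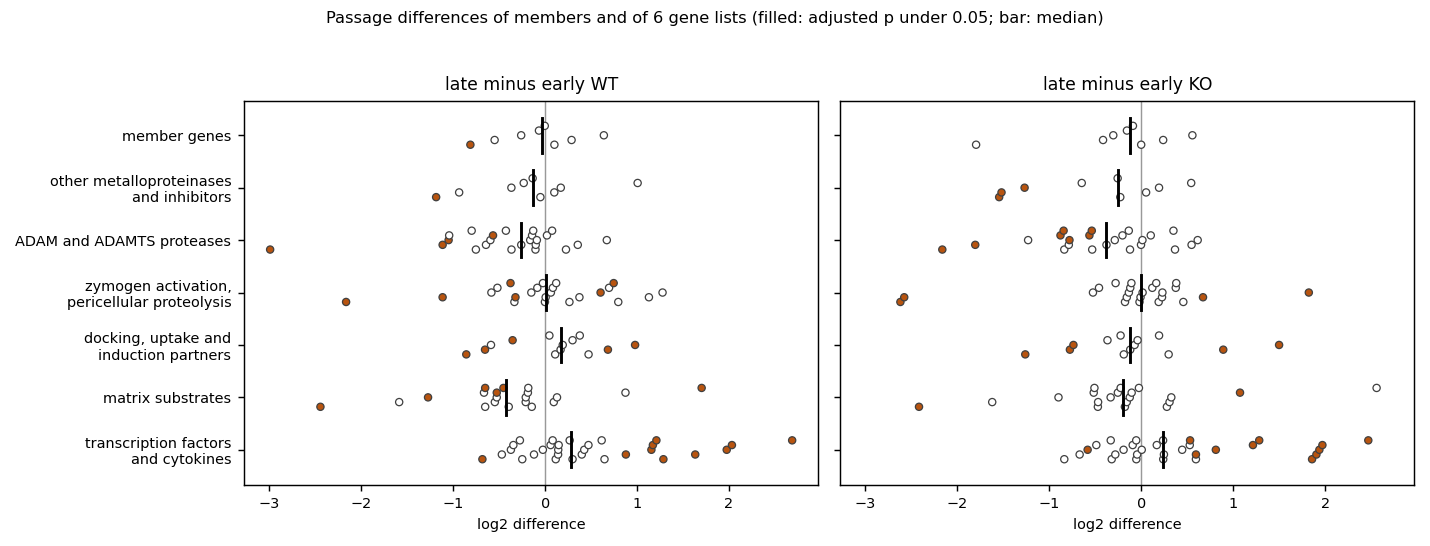
Log2 difference, late minus early passage (x axis), of the 8 tested members and of the measured genes of 6 lists (rows), in WT and in KO, with a point per gene, filled where the adjusted p was under 0.05, and a bar at the median. Filled points of the protease lists lie mostly left of 0 and those of the transcription factors and cytokines mostly right of it, while 1 member point is filled.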

How the data were processed

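Per the file headers, each deposited scanner file gives spot intensities from which Agilent Feature Extraction had removed local background and spatial trends, without scaling between arrays. The headers give version 11.5.1.1 and the submitters' processing notes 10.7.3.1. The authors' deposited value table holds log2 values which, set against the scanner values, were scaled to the 75th percentile and centred on each probe's mean, and it served as an alternative.

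Outlier spots were left out, repeated spots averaged, and each array's 75th percentile (intensities of 568.9 to 902.5) was subtracted on the log2 scale. Probes well above background on all 3 arrays of a group were kept (24359, after 107 with an outlier spot were left out), and the kept probe with the highest mean stood for a gene. Probes were named by matching array accessions to RefSeq (27969 of 28290 matched). limma 3.58.1 in R 4.3.3 fitted the 4 group means to 12 arrays, with 8 residual degrees of freedom. The code was tested on simulated data. An exact permutation of 3 arrays against 3 cannot give a two-sided p below 0.1.

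"At least" folds are set against the lowest signal above background on the dim arrays. Deviations of same-numbered WT arrays correlated across passages by 0.28, 0.24 and 0.14, and those of KO by 0.030, 0.079 and -0.092. Each replicate number also stood for a slide, so a shared culture and a shared slide cannot be told apart here. Members and lists were chosen with earlier results of these data known. Named were all members, a selection of the called genes of each list, and the 3 genes nearest to each of 3 members. The selection did not always follow the size of the difference. Among the calls left out were Sdc4, with passage differences of 0.98 in WT and 0.89 in KO, and Adamts9, at -1.05 in WT. Reck and Mmp12 were named after their values were seen. The normexp alternative used the median spot signal. The array annotation rests on another build, so coordinates are given only for RefSeq promoters.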

Additional observations from a re-analysis of the deposited data

Results flagged for a closer look

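Fgf2, a fibroblast growth factor that induces proteases, had passage differences of opposite sign in the 2 genotypes, neither of which passed. Late minus early passage was 0.65 in WT and -0.67 in KO, with groups that did not overlap in either genotype. Its adjusted p was 0.0851 in WT and 0.0548 in KO (limma), and the difference between the passage changes was -1.32 ± 0.31 (SE, n = 3 per group, adjusted p = 0.138), so it did not pass.

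Mmp24, a membrane-anchored metalloproteinase, was 0.85 higher in KO than in WT at early passage and had a KO minus WT difference of -0.79 at late passage, again without overlap. The adjusted p was 0.741 and 0.110, and the difference between the 2 was -1.65 ± 0.40 (SE, n = 3 per group, limma adjusted p = 0.155), which did not pass. Its probe was above background on 1 WT early array and on 0 KO late arrays, so the sizes are uncertain.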

How the results depend on the processing

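Over 40 member differences and 26 other settings, 965 of 990 values kept their call, 14 calls were lost, 11 gained and 0 reversed. The number of members called for WT passage was 1 as reported, 2 with normexp and quantile normalization, and 0 without the filter on dim probes, with only the groups compared in the fit, with array weights by group and without KO late replicates 1 and 2, which carry Xist. The number for KO passage was 0 as reported, 1 with quantile normalization, 1 with normexp, 3 with only the groups compared, 2 with array weights and 1 without both WT arrays of replicate 1. As reported, 10.6% of all transcripts were called for WT passage and 18.9% for KO passage. The shares under the other settings are not given here. These counts therefore show which member calls moved, and not whether members moved more than other transcripts. With the replicate block 0 members were called for WT passage, through the loss of Mmp14, and the block changed no other member call. Leaving out each array in turn gave 0 to 1 members for WT passage and 0 to 1 for KO passage. The Mmp14 call held in 12 of 26 settings. Of 83 calls in the 6 lists, 10 held in every setting run (Fos and Egr1 in both genotypes, Adamts5, Adamts17, Fap and Hbegf in WT, Ctsk and Lcn2 in KO, all with passage) and 0 turned sign, and list counts stayed within a ratio of 3 to 2 in 613 of 750 cases, with 111 lower and 26 higher. The normexp correction on median signals, the fit without both WT arrays of replicate 1 and the block in WT alone were chosen after seeing the data. Signal over background limits Mmp9 and Mmp10, and the causes of these shifts were not tested.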
